A study of Mus musculus with 6 samples.

Results

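Bone morphogenetic protein (BMP) signalling was followed here through 10 genes measured in STHdh cells, an immortalized mouse line of striatal origin. They are the ligands Bmp4 and Bmp2, the receptors Bmpr1a and Bmpr2, the antagonists Grem1 and Fst, the Id genes Id1, Id2 and Id3, and the inhibitory Smad gene Smad6. The members were found by gene symbol on an Illumina mouse expression beadchip, where they hold 14 of 25697 probes. Id1 and Id3 stand on the array under their older symbols Idb1 and Idb3. Of the 14 probes, 13 passed the detection filter and were tested, and the Bmp2 probe did not.

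The study set 3 samples of STHdh cells transfected with Foxp1, a forkhead transcription factor of the striatum, against 3 control samples, with 1 array each. The titles of the controls carry the plasmid name pcDNA, whereas their genotype is labelled wild-type, and the labels do not settle whether an empty plasmid was given. The labels name no huntingtin allele, amount of plasmid, time after transfection or share of cells transfected. Nothing in the labels says that replicates were separate cultures, so the p-values rest on a spread that may be purely technical.

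BMP ligands are secreted dimers that bring type I and type II receptor kinases together on the target cell. The receptors phosphorylate Smad1, Smad5 and Smad9, which enter the nucleus with Smad4 and switch on target genes, among them the Id genes. Id proteins are helix-loop-helix factors without a DNA-binding region, and they hold E proteins away from DNA. Secreted antagonists bind the ligands before they reach a receptor, and Smad6 damps the signal inside the cell. In the developing forebrain, BMPs pattern the dorsal midline and turn progenitors of the subventricular zone away from the neuronal fate and towards astrocytes.

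Foxp1 itself was higher with transfection. Its probe had intensities of 4967, 4979 and 5250 on the Foxp1 arrays, against 688, 621 and 1048 on the control arrays, and the log2 difference was 2.62 ± 0.17 (SE, limma adjusted p = 0.0005). Median probe intensity was 36.6 to 64.5 on Foxp1 arrays and 29.2 to 77.0 on control arrays, with the replicate 3 array of each group the brightest, and the arrays detected 45.9% to 48.0% of the probes. Of the neuronal and striatal markers, 10 of 12 were on the array and 2 passed the detection filter, and the probes for Drd1, Adora2a, Tac1, Gad1, Gad2, Bcl11b, Syt1 and Snap25 were detected on 0 arrays. Of the progenitor markers Nes, Sox2 and Vim passed the filter, and of the endothelial markers 0 of 4 did. Of 7 fibroblast and mesenchymal markers, 4 passed the filter (Col1a1, Col3a1, Dcn and Pdgfrb), while Col1a2, Lum and Thy1 were detected on 0 arrays. The summed normalized level of those 4 was 4076 to 4556 on Foxp1 arrays and 5006 to 5895 on control arrays, and most of it came from the Col1a1 probe. The sums did not overlap between groups, but singly Col1a1 was the 1 of the 4 without overlap (-0.31 ± 0.11 on the log2 scale, SE), and 0 of the 4 passed the test (2 at an unadjusted p under 0.05). Of 5 astrocyte markers Slc1a3 and Aldh1l1 passed the filter, and Gfap, Aqp4 and S100b were detected on 0 arrays. The sum of these 2 was 257 to 302 on Foxp1 arrays and 319 to 487 on control arrays, without overlap. Slc1a3, a glutamate transporter, did not overlap (-0.61 ± 0.18, limma adjusted p = 0.137, and 0.0455 with the replicate number as a block), while Aldh1l1 overlapped (0.16 ± 0.18). Ppp1r1b, a marker of striatal projection neurons, was detected on 0 Foxp1 and 3 control arrays, so it entered the test through the control arrays alone. By its 1 kept probe of 3 its mean was at least 1.21-fold lower with Foxp1. It did not pass (limma adjusted p = 0.124), so no fall is read from it. Drd2, the other neuronal marker that passed the filter, differed by 0.06 ± 0.28 (adjusted p = 0.936), with overlapping groups. The sum of Ppp1r1b and Drd2 was 155 to 180 on Foxp1 arrays and 154 to 226 on control arrays, with overlap.

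Across the tested probes of the members, Bmp4 was lower in Foxp1-transfected cells, and this was the 1 probe of 13 past an adjusted p of 0.05 with limma (0 rose, 1 fell). Over all 12136 tested probes 2.61% passed, 1.55% as higher and 1.06% as lower. In 8 of the 13 probes the 3 Foxp1 arrays lay entirely on 1 side of the 3 control arrays, against 24.7% of all tested probes. Of these 8, 4 were higher with Foxp1 (Grem1, Fst and a probe each of Bmpr1a and Bmpr2; 11.4% over all probes) and 4 were lower (Bmp4, Id1 and both Smad6 probes; 13.4%). The median difference was -0.12 over the 13 probes and 0.00 over all tested probes, on the log2 scale. At an unadjusted p under 0.05, 7 of the 13 passed, against 18.1% of all probes. Bmpr2 probe ILMN_2614322, in both counts, was detected on 3 Foxp1 arrays and 1 control array, so its Foxp1 arrays alone met the filter. Of the 11 member probes detected on all 6 arrays, 6 passed at that unadjusted level, as did 2114 of all 11016 such probes. The genes were picked with earlier results of these data known, so these counts describe them and do not set them apart.

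**Figure D1:**
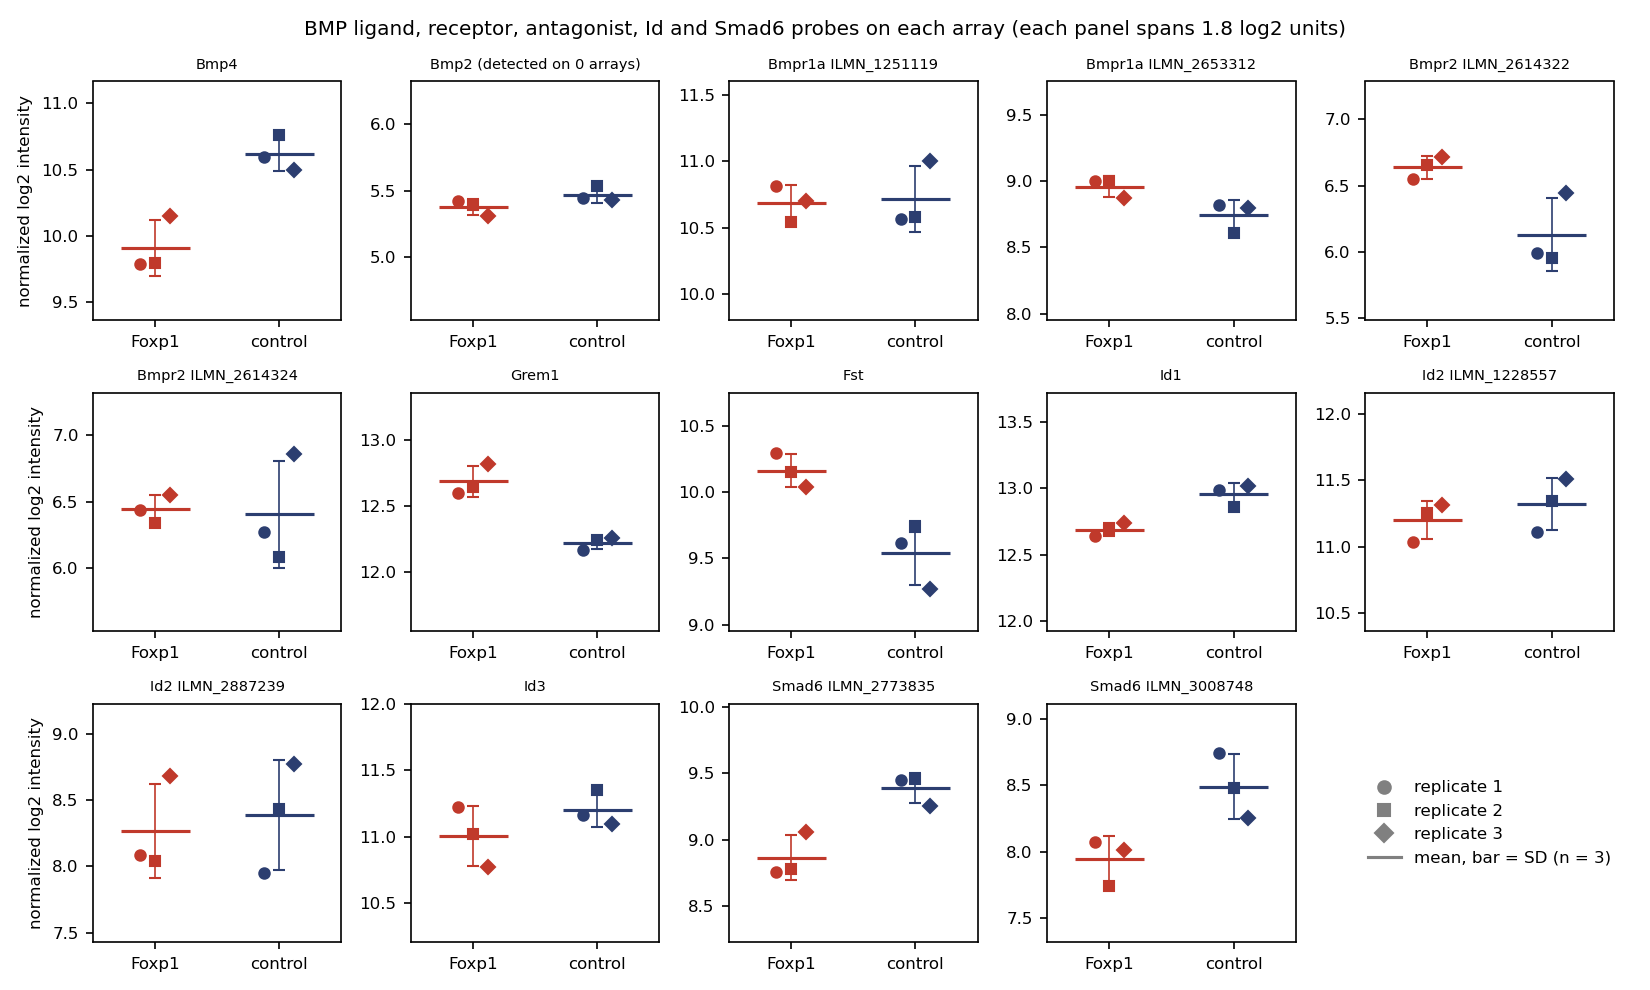
Normalized log2 intensity (y axis) of the 14 probes on each of the 3 Foxp1 arrays (left, red) and 3 control arrays (right, blue), with marker shapes for replicate numbers, lines at group means and bars of 1 SD. Bmp4, Id1 and both Smad6 probes sit lower on every Foxp1 array than on any control array, and Grem1 and Fst sit higher.

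Bmp4 encodes a ligand that binds Bmpr1a and Bmpr2. The deposited intensities of its probe were 757, 719 and 1467 on Foxp1 arrays 1 to 3, against 1107, 1272 and 2161 on control arrays 1 to 3. Each Foxp1 array was dimmer than the control array of the same number, while Foxp1 array 3, from the brighter pair, exceeded control arrays 1 and 2 before normalization. After normalization the levels were 9.79, 9.79 and 10.15 on the Foxp1 arrays and 10.60, 10.76 and 10.50 on the control arrays, and the groups did not overlap.

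The mean log2 level of Bmp4 was 9.91 ± 0.21 in Foxp1-transfected cells and 10.62 ± 0.13 in controls (SD, n = 3 each). The difference was -0.71 ± 0.13 (SE), a 1.63-fold fall, with a 95% interval of -1.01 to -0.41 and a limma adjusted p of 0.0347. Same-numbered arrays differed by -0.81, -0.97 and -0.35, so the replicate 3 pair showed the smallest gap. The call was lost without Foxp1 replicate 1 (adjusted p = 0.157) or 2 (0.167) and without control replicate 1 (0.106) or 2 (0.138). In those fits, in that order, the difference was -0.65, -0.65, -0.72 and -0.64. Over all probes they called 37, 35, 118 and 94, against 317 with all 6 arrays. The call was kept without Foxp1 replicate 3 (0.0368) or control replicate 3 (0.0374). It was also lost with no background correction (0.0514) and with no detection filter (0.0734). The summed levels of the mesenchymal and astrocyte markers were also lower on the Foxp1 arrays. Of their 4 and 2 tested genes, however, 0 passed the reported test, and the 2 astrocyte genes had opposite signs. The sum of the neuronal markers Ppp1r1b and Drd2 overlapped, as did the 1 tested microglia marker. The progenitor sum also overlapped, at 24063 to 27416 on Foxp1 arrays and 25410 to 26340 on control arrays. Ppp1r1b by itself did not pass, and it entered the test through the control arrays alone. The part of these markers in the fall of Bmp4 was not tested. In RNA from whole cultures, fewer cells that express a gene and less RNA per cell cannot be told apart.

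The 250 bases that precede the Bmp4 start in RefSeq (build GRCm38.p6) are shown because this is the 1 member that passed, with matches to the searched motifs in capitals. The motifs were the forkhead motif TGTTTAC, the GC-rich Smad element GGCGCC, the Smad box GTCTAGAC and the E-box CANNTG, which is bound by the E proteins that Id proteins hold back, each on both strands.
Bmp4, chr14:46390670-46390919, minus strand: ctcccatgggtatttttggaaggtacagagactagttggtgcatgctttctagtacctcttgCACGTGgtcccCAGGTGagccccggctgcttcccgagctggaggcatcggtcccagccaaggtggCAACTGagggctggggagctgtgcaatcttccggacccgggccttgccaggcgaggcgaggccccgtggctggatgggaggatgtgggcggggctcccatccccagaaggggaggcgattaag
This stretch holds 3 E-boxes, which begin 188, 177 and 123 bases before the start, and no match to the other 3 motifs. Over the 32851 RefSeq promoter windows of that length, 66.2% hold an E-box, 3.17% the forkhead motif, 9.59% the GC-rich Smad element and 0.167% the Smad box.

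Bmp2, the closest relative of Bmp4, was not detected. Its probe read 6.05, 4.41 and -0.597 on the Foxp1 arrays and 5.75, 10.1 and 16.6 on the control arrays, around the background that the authors had already subtracted. It was well above background on 0 of 3 Foxp1 arrays and 0 of 3 control arrays, so no fold is given.

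The type I receptor Bmpr1a, a serine/threonine kinase that binds Bmp4 and Bmp2, was detected on all 6 arrays by 2 probes. Probe ILMN_1251119 had intensities of 1577, 1230 and 2171 on the Foxp1 arrays and 1087, 1120 and 3071 on the control arrays, and the groups overlapped before and after normalization. Its difference was -0.03 ± 0.14 (SE, 95% interval -0.36 to 0.30, limma adjusted p = 0.945), and it turned positive without control replicate 3 (0.11) or Foxp1 replicate 2 (0.04). Probe ILMN_2653312 had intensities of 426, 409 and 598 with Foxp1 and 317, 273 and 661 in controls, and after normalization the lowest Foxp1 array (8.87) lay just above the highest control array (8.82). It differed by 0.22 ± 0.10 (95% interval -0.02 to 0.45, adjusted p = 0.308), and the intervals of the 2 probes overlapped.

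The type II receptor Bmpr2, the kinase that activates the type I partner, was dim. Probe ILMN_2614322 had intensities of 64.6, 71.0 and 122 on the Foxp1 arrays, all 3 detected, and of 27.8, 28.4 and 117 on the control arrays, of which only the third was detected. The groups did not overlap after normalization, with levels of 6.55, 6.65 and 6.72 against 5.99, 5.95 and 6.45, and the difference was 0.51 ± 0.14 (SE, 95% interval 0.18 to 0.84, limma adjusted p = 0.121). Without control replicate 3 this probe passed (0.65, adjusted p = 0.0226), but no control array that was left detected it. In that fit it entered the test through the Foxp1 arrays alone, so the pass is not read further. Probe ILMN_2614324 was detected on 3 Foxp1 and 2 control arrays, overlapped between groups and differed by 0.04 ± 0.19 (95% interval -0.40 to 0.47, adjusted p = 0.947). Its sign was negative without Foxp1 replicate 3 (-0.02), control replicate 1 (-0.03) or control replicate 2 (-0.12), so the 2 probes give no common value for Bmpr2.

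Grem1 encodes gremlin, a secreted protein that binds Bmp2 and Bmp4 and keeps them from their receptors. Its intensities were 5622, 5408 and 9096 on Foxp1 arrays 1 to 3, against 3337, 3708 and 7133 on the same-numbered control arrays. Every Foxp1 array was brighter than the control array of its number, and after normalization the groups did not overlap, with 12.60, 12.64 and 12.82 against 12.17, 12.25 and 12.26. Mean levels were 12.69 ± 0.12 with Foxp1 and 12.22 ± 0.05 in controls (SD, n = 3 each). The difference was 0.46 ± 0.10 (SE), 1.38-fold, with a 95% interval of 0.23 to 0.69 and a limma adjusted p of 0.0539, which missed the threshold. With the replicate number as a block, Grem1 passed (adjusted p = 0.0486). Same-numbered arrays differed by 0.43, 0.40 and 0.55, an even set beside those of Bmp4.

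The Grem1 promoter is shown for comparison with that of Bmp4, the ligand that its product binds, with matches in capitals as above.
Grem1, chr2:113758649-113758898, minus strand: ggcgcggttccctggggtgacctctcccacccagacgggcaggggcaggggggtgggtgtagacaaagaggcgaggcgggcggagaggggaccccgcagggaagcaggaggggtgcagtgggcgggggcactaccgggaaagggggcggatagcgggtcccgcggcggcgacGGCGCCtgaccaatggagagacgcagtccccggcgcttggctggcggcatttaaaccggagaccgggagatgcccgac
It holds 1 GC-rich Smad element, 78 bases before the start, and no match to the other 3 motifs. Such a match is a description of letters and no evidence of binding. The GC content of this stretch was 72.0%, against 63.2% for that of Bmp4.

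Fst encodes follistatin, which binds activins tightly and BMPs more weakly. Its intensities were 1094, 925 and 1357 on the Foxp1 arrays, against 560, 619 and 915 on the control arrays, so all 3 Foxp1 arrays were above all 3 control arrays even before normalization. The normalized levels were 10.29, 10.15 and 10.04 with Foxp1 and 9.61, 9.73 and 9.27 in controls. The difference was 0.62 ± 0.14 (SE), 1.54-fold, with a 95% interval of 0.30 to 0.94 and a limma adjusted p of 0.0639. With the replicate block it passed (adjusted p = 0.0364). With that block, 3 of the 13 member probes passed in place of 1 (Grem1 and Fst higher, Bmp4 lower at 0.0479), beside 3.67% of all probes. Without the block, neither antagonist passed in any of the 6 fits that left out 1 array (lowest adjusted p 0.061 for Grem1 and 0.0656 for Fst).

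**Figure D2:**
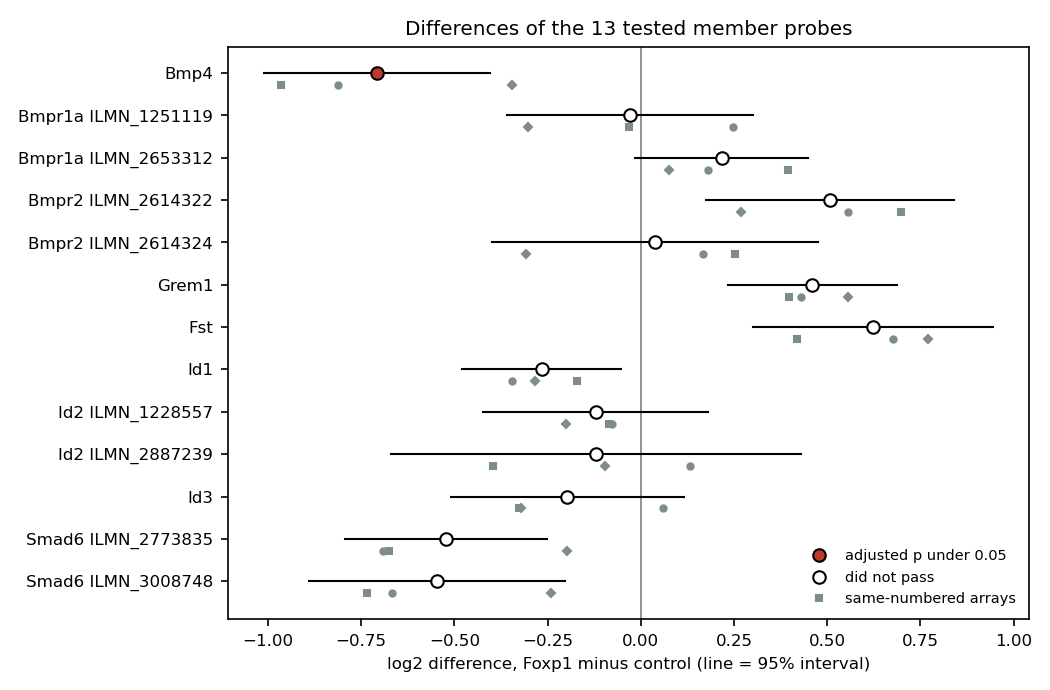
Log2 difference of the Foxp1 arrays minus the control arrays (x axis) for the 13 tested probes, with 95% intervals as lines and the differences of same-numbered arrays as small grey marks (circle, square and diamond for replicates 1, 2 and 3). Bmp4 at -0.71 is the 1 filled point, and the intervals of Grem1, Fst, Id1, both Smad6 probes and Bmpr2 probe ILMN_2614322 also leave out 0 although their adjusted p missed the threshold.

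Smad6 encodes an inhibitory Smad that blocks the signal of type I receptors and is itself a BMP target. It was read by the probes ILMN_2773835 and ILMN_3008748, both detected on all 6 arrays. ILMN_2773835 had intensities of 361, 349 and 682 on the Foxp1 arrays, against 503, 505 and 911 on the control arrays, and ILMN_3008748 had 216, 164 and 322 on the Foxp1 arrays, against 299, 249 and 458 on the control arrays. Each Foxp1 array was dimmer than the control array of its number in both probes, and after normalization neither probe overlapped between groups.

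For ILMN_2773835 the mean log2 level was 8.87 ± 0.17 with Foxp1 and 9.39 ± 0.11 in controls (SD, n = 3 each). It differed by -0.52 ± 0.12 (SE), 1.44-fold, with a 95% interval of -0.79 to -0.25 and a limma adjusted p of 0.0648, and ILMN_3008748 differed by -0.55 ± 0.15, 1.46-fold (95% interval -0.89 to -0.20, adjusted p = 0.111). As with Bmp4, the replicate 3 pair showed the smallest gap in both probes (-0.20 and -0.24, against -0.69 and -0.67 in pair 1 and -0.67 and -0.74 in pair 2). With both replicate 3 arrays left out, ILMN_2773835 passed (-0.69, adjusted p = 0.034) and ILMN_3008748 did not (-0.70, adjusted p = 0.0748). The 2 probes read the same gene and are not independent evidence.

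The RefSeq promoter of Smad6 is shown as that of the member whose fall beside Bmp4 came nearest to the threshold.
Smad6, chr9:64022060-64022309, minus strand: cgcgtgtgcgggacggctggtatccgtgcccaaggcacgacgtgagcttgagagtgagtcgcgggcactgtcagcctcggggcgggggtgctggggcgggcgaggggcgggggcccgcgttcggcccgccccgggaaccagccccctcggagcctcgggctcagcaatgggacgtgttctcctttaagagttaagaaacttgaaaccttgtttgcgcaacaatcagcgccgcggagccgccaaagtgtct
It holds 0 matches to the 4 motifs, which says only that these letters are not in this stretch. RefSeq windows were found for 7 of the 10 members. Of the windows not printed, those of Bmpr1a, Bmpr2 and Id2 hold 1 GC-rich Smad element each, that of Id2 also holds 1 E-box, and that of Id3 holds no match. Among the 7 windows, 0 hold the forkhead motif, which 3.17% of all windows hold.

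The Id genes, the usual readout of BMP signalling, had negative differences in all 4 of their probes, and 0 of the 4 passed the test (1 at an unadjusted p under 0.05). Id1 had intensities of 5885, 5567 and 8677 on the Foxp1 arrays, against 6053, 5829 and 11659 on the control arrays. Every Foxp1 array was dimmer than the control array of its number, by a small margin in pairs 1 and 2. Normalized levels were 12.64, 12.69 and 12.74 with Foxp1 and 12.99, 12.86 and 13.02 in controls, without overlap. The difference was -0.27 ± 0.09 (SE), 1.20-fold, with a 95% interval of -0.48 to -0.05 and a limma adjusted p of 0.187, and it stayed between -0.31 and -0.23 in the 15 alternatives without passing in any.

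Id2 was read by 2 probes that overlapped between groups. ILMN_1228557 had levels of 11.04, 11.26 and 11.31 with Foxp1 and 11.11, 11.34 and 11.51 in controls, a difference of -0.12 ± 0.13 (SE, 95% interval -0.42 to 0.18, limma adjusted p = 0.674). ILMN_2887239 had 8.08, 8.04 and 8.68 with Foxp1 and 7.95, 8.43 and 8.77 in controls, a difference of -0.12 ± 0.24 (95% interval -0.67 to 0.43, adjusted p = 0.833), and was positive without control replicate 3 (0.07). In the dimmer probe the replicate 3 arrays of both groups were the highest, and the spread within groups exceeded the gap between them.

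Id3 had levels of 11.22, 11.02 and 10.77 on the Foxp1 arrays and 11.16, 11.35 and 11.09 on the control arrays, and the groups overlapped. It differed by -0.20 ± 0.13 (SE, 95% interval -0.51 to 0.11, limma adjusted p = 0.485). The lower interval bounds of the Id genes allow falls of 0.42 to 0.67 on the log2 scale, so these arrays leave a moderate change of the Id genes undecided.

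The call of the members depended on the processing, as the plot of adjusted p by setting shows. Bmp4 passed in 9 of 15 alternatives, Grem1 and Fst in 5 each, the brighter Smad6 probe ILMN_2773835 in 3 and the other Smad6 probe in 1. By p, Bmp4 ranked 228 of the 12136 tested probes, Grem1 351, Fst 403 and the brighter Smad6 probe 406, while 317 probes passed.

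**Figure D3:**
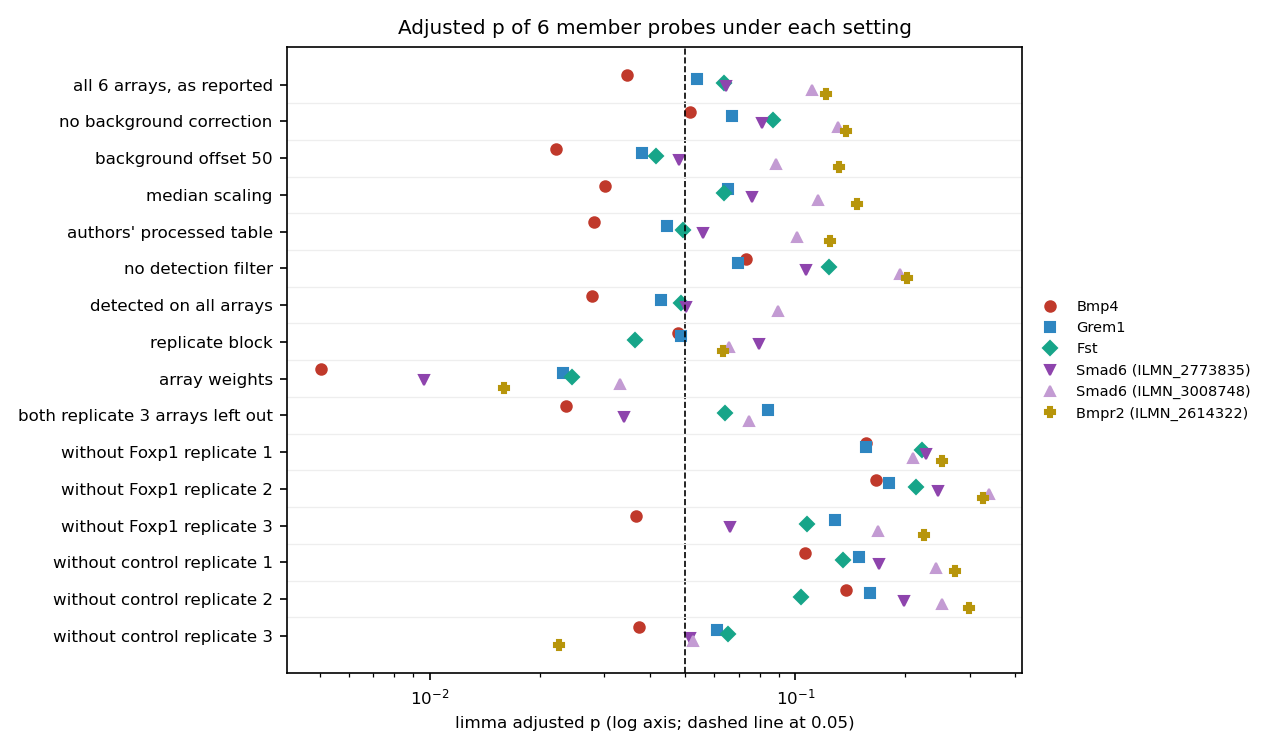
Limma adjusted p (x axis, log scale, dashed line at 0.05) of 6 member probes under the reported setting (top line) and 15 alternatives. Bmp4 lies left of the line in 9 of 15 alternatives, and Grem1, Fst and both Smad6 probes cross it in some settings and lie right of it in all 6 fits that left out 1 array.

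The rest of the pathway was read from 83 further genes in 5 lists by role. Of these, 79 were on the array and 42 had a kept probe. Among the 42, 2 rose, 1 fell and 39 did not pass, and of all 8798 tested genes 2.73% passed (1.58% higher, 1.15% lower). Gdf15, 1 of the 2 that rose, and Hjv had no control array with detection and entered through the Foxp1 arrays alone, so the count is not read against that share. With detection required on all 6 arrays, 35 of these genes were tested, 1 rose and 1 fell. At an unadjusted p under 0.05, 16 of the 42 passed, Gdf15 and Hjv among them, and 18.5% of all tested genes. This count is likewise not read against that share. Of the 35 genes detected on all 6 arrays, 14 passed at that level. Of all 11016 probes detected on all 6 arrays, 2114 passed at that level and 338 after adjustment. The lists were chosen with earlier results of these data known, so these counts describe them and do not set them apart. The 3 that passed after adjustment were Gdf15, Inhbb and Atoh8. The median difference of the 42 was -0.04, with 16 positive and 26 negative, and over all tested genes it was 0.00.

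**Figure D4:**
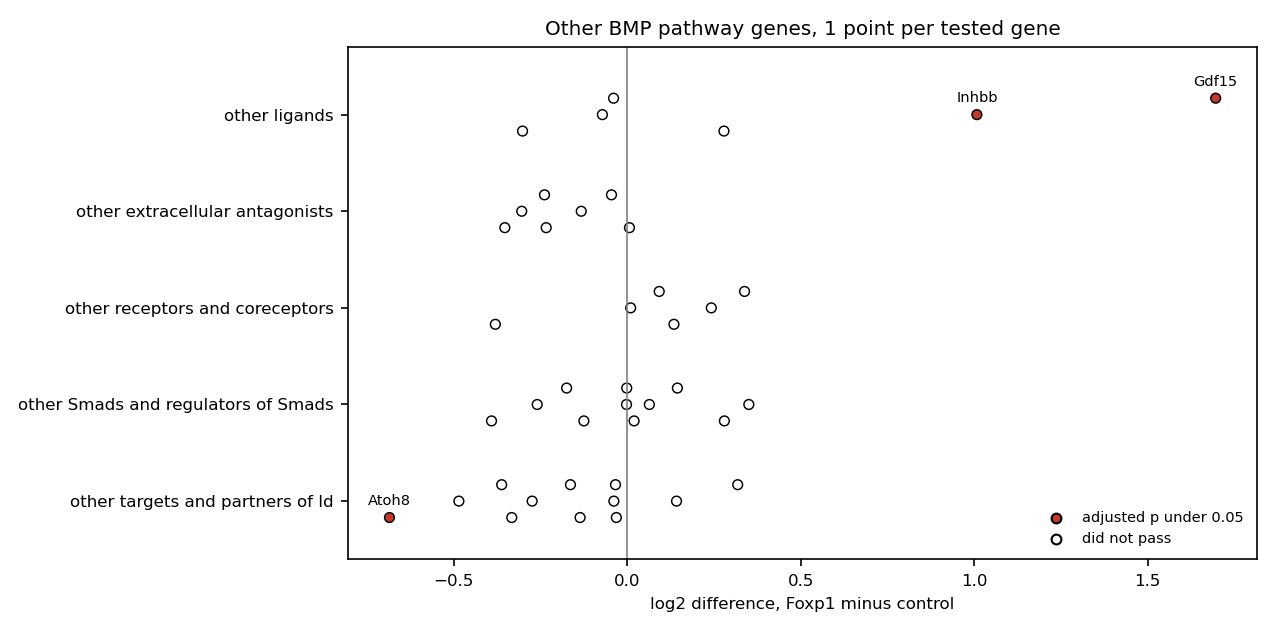
Log2 difference of the Foxp1 arrays minus the control arrays (x axis) for the 42 other tested BMP pathway genes, 1 point a gene, in lines by role. The filled points are Gdf15 (1.70), Inhbb (1.01) and Atoh8 (-0.69), and the other 39 lie between -0.49 and 0.35.

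Among 6 tested ligands of 21 on the array, Gdf15 and Inhbb rose and 0 fell. Gdf15, a stress-induced and distant member of the ligand family, had intensities of 73.9, 80.1 and 187 on the Foxp1 arrays, against -3.74, -8.94 and -2.43 on the control arrays. It was detected on 3 Foxp1 and 0 control arrays, so it entered the test through the Foxp1 arrays alone, and it was at least 1.58-fold higher (limma adjusted p = 0.00193).

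Inhbb, the beta B subunit of activin B, had intensities of 212, 223 and 371 with Foxp1, against 89.0, 87.3 and 199 in controls. Its lowest Foxp1 array was above its highest control array before and after normalization. The difference was 1.01 ± 0.09 (SE), 2.01-fold (limma adjusted p = 0.00193). All 15 alternatives kept this call. Its relative Inhba, the beta A subunit, differed by -0.30 ± 0.11 and did not pass (adjusted p = 0.197). The probes for Bmp3, Bmp6, Bmp7, Bmp8a and Bmp10 were detected on 0 arrays, and of the other BMP ligands Bmp5 and Bmp8b had a kept probe and differed by -0.04 ± 0.15 and -0.07 ± 0.19, with overlapping groups.

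Of the 7 tested antagonists and modulators besides Grem1 and Fst, 0 passed (3 at an unadjusted p under 0.05), and 6 had negative differences (list median -0.23). The smallest p were those of Bmper, a secreted BMP-binding protein (-0.35 ± 0.11 SE, limma adjusted p = 0.149), and Twsg1, a cofactor of chordin (-0.23 ± 0.09, adjusted p = 0.214). The probe for Nog, which encodes noggin, was detected on 0 arrays. Grem1 and Fst had positive differences, unlike 6 of these 7 antagonists and modulators. Of the 7, however, 0 passed and only 3 did not overlap between groups, and the contrast was not tested.

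Of 6 tested receptors and coreceptors, 0 passed (2 at an unadjusted p under 0.05, list median 0.11). The smallest p were those of Rgma, a BMP coreceptor and guidance molecule (-0.38 ± 0.13 SE, limma adjusted p = 0.187), and Hjv, the BMP coreceptor of iron control, which was detected on 3 Foxp1 and 0 control arrays (at least 1.06-fold higher, adjusted p = 0.224). Of 11 Smads and Smad regulators, 0 passed (4 at an unadjusted p under 0.05, list median 0.00). The smallest p were those of Ctdsp2, a small phosphatase that acts on Smads (-0.39 ± 0.11, adjusted p = 0.11), and Skil, a Smad corepressor (0.28 ± 0.10, adjusted p = 0.182). The signal-carrying Smads of the pathway, Smad1 (0.14 ± 0.11) and Smad5 (0.02 ± 0.12), did not pass, and Smad9 and the inhibitory Smad7 were detected on 0 arrays, so Smad6 was the 1 inhibitory Smad with a value.

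The last list joined Id4 and E protein genes such as Tcf3 with other genes such as Atoh8. It is not a list of genes that Id proteins control. Of its 12 tested genes, 0 rose and 1 fell, with 10 of 12 differences negative (list median -0.15). The gene that fell, Atoh8, encodes a basic helix-loop-helix factor known as a BMP target in liver and endothelium. Its intensities were 124, 130 and 203 on the Foxp1 arrays, against 172, 199 and 393 on the control arrays. The normalized groups did not overlap, and the difference was -0.69 ± 0.09 (SE), 1.61-fold (limma adjusted p = 0.0112). The call was lost without Foxp1 replicate 1 (adjusted p = 0.0817) or 2 (0.0719) and without control replicate 2 (0.0566). Id4, the remaining Id gene, differed by -0.27 ± 0.18 (adjusted p = 0.461), and the E protein gene Tcf3 by -0.36 ± 0.09 (adjusted p = 0.0764).

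Among the genes whose 6 normalized values lay nearest to those of Bmp4, each centred on its own mean, were Flot1, a membrane raft protein, and Zfp579, a zinc finger protein. Their root mean square differences from Bmp4 over the 6 arrays were 0.08 and 0.10 on the log2 scale, out of 8436 named genes compared. With Foxp1 they differed by -0.64 ± 0.10 and -0.66 ± 0.15 (SE). Both were picked for a pattern like that of Bmp4, group difference included, so these values describe them and are not tested.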

How the data were processed

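The deposited probe intensity is on a linear scale with an array background already subtracted by the authors (29.5% to 31.6% of values lay below 0), and a detection p-value stands beside each deposited intensity, per the file headers. GenomeStudio is named in the submitters' processing notes. The authors' processed values, deposited in a second table, follow the log2 intensities array by array (r at least 0.925 with their own column, at most 0.477 with another) and were read as log2. Their column medians were 6.3215, 6.3211 and 6.3218 for Foxp1 and 6.3228, 6.3213 and 6.3242 for control, with centring and offset unknown, and they served as an alternative.

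Intensities were background-corrected with neqc of limma 3.58.1 (R 4.3.3; offset 16), which ends with quantile normalization and log2. A probe was kept if 3 or more of the 6 arrays detected it at a p under 0.05 (12136 probes, 47.2%). Groups, from the titles, were compared by 2-sided moderated tests (lmFit, eBayes), and p-values were adjusted over all kept probes (Benjamini-Hochberg, threshold 0.05). The fit was also run on simulated data with independent noise on each array. Those data held no shared replicate effect and no difference in array quality, so that run does not cover either. Differences are Foxp1 minus control with SE, and intervals cover 95%. The number of arrays limits precision. A gene of a list is its kept probe with the highest mean. Where 1 group had no detected array, a bound sets the other group's mean against, per array, the higher of the probe's level and the lowest detected level. The bound takes the means as they are and leaves out their spread. Array symbols were updated through RefSeq synonyms (7082 probes), and promoters are RefSeq's of GRCm38.p6. The files name no build.

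The titles number replicates 1 to 3 in both groups. Deviations from group means correlated at 0.257, 0.115 and 0.401 between same-numbered arrays, all over 0.1, and the numbers were taken as pairs on that basis. Foxp1 array 2 with control array 1 gave 0.151 and Foxp1 array 1 with control array 2 gave 0.121, both above the pair of replicate 2. Replicate 3 alone thus stands apart, and these values do not settle the pairing of replicates 1 and 2. The fit with that block is an alternative. The closing section gives the other alternatives. The members and lists were chosen with earlier results of these data known. By the naming rule, each list gives its genes past the threshold, or else the 2 with the smallest p, and each member past the threshold the 3 genes nearest to it; a gene that this rule gives is not reported here. Inhba, Id4, Tcf3, Smad1, Smad5, Bmp5, Bmp8b and the undetected genes were named after their values were seen.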

Additional observations from a re-analysis of the deposited data

How the results depend on the processing

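With limma, 1 member probe passed as reported. None passed with no background correction (0, with 7 at an unadjusted p under 0.05; Bmp4 -0.72, adjusted p = 0.0514) or with no detection filter (0, with 8 at an unadjusted p under 0.05; Bmp4 -0.71, adjusted p = 0.0734). There were 4 with offset 50 (besides Bmp4, Grem1 0.46, Fst 0.60, Smad6 probe ILMN_2773835 -0.49), 3 with the authors' processed values (Grem1 0.46, Fst 0.60), 3 with detection on all 6 arrays (Grem1 0.46, Fst 0.62), 3 with the replicate block (Grem1 0.46, adjusted p = 0.0486; Fst 0.62, adjusted p = 0.0364) and 2 with both replicate 3 arrays left out (Smad6 probe ILMN_2773835 -0.69). Array weights gave 6 (Grem1 0.42, Fst 0.55, Smad6 -0.62 and -0.57, Bmpr2 probe ILMN_2614322 0.60). That Bmpr2 probe met the detection filter by its Foxp1 arrays alone, with 1 control array detected. The block changed no other member's call. Bmpr1a probe ILMN_1251119, at -0.03 as reported, turned to 0.074 with array weights and 0.11 with both replicate 3 arrays left out. The cause of these changes was not tested. The filters change how many probes share the adjustment and also the SE (for Bmp4, 0.131 as reported and 0.125 with no detection filter).

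Over all probes, 317 of 12136 passed as reported, 445 with the replicate block and 1034 with array weights. There were 243 with no background correction, 390 with offset 50 and 355 with the authors' processed values. Where the tested set changed, 207 of 25697 passed with no detection filter and 338 of 11016 with detection on all 6 arrays. With both replicate 3 arrays left out, 245 of 11748 passed. The other pathway genes past the threshold were 3 as reported and 7 with array weights. With 1 array left out at a time, which also leaves fewer samples, all probes past the threshold ran from 35 to 373. Other pathway genes past it ran from 1 to 3 and member probes from 0 to 2 over the 6 fits. The 2 include Bmpr2 probe ILMN_2614322, which entered through the Foxp1 arrays alone. In those fits Bmp4 ran from -0.82 to -0.64, Bmpr2 probe ILMN_2614322 from 0.43 to 0.65 and ILMN_2614324 from -0.12 to 0.26, Bmpr1a probe ILMN_1251119 from -0.10 to 0.11 and Id2 probe ILMN_2887239 from -0.34 to 0.073. Where a group was left with 2 arrays, its spread was taken from the pooled fit. Bmp2, with no detected array, gave -0.09 (adjusted p = 0.689) when the filter was dropped. The dim Bmpr2 probe ILMN_2614322 gave 0.36 with offset 50 and 0.73 with no background correction, and ILMN_2614324 gave 0.02 and 0.08. These settings differ in more than the offset, and its part in the values was not tested.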
